A study of Mus musculus with 4 samples.

Results

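The 10 genes described here encode the mouse IL-2 receptor chains and the signalling parts below them: Il2ra, Il2rb and Il2rg, the kinases Jak1 and Jak3, the transcription factors Stat5a and Stat5b, and the feedback inhibitors Cish, Socs1 and Socs2. They were chosen by gene symbol, and all 10 were found among the 17187 genes of the deposited table. The cells were sorted group 2 innate lymphoid cells (ILC2s) from lungs of wild-type BALB/c mice, lymphocytes that make type 2 cytokines without an antigen receptor. After isolation they were kept in culture for 18 hours with an isotype control antibody (2 libraries) or with an antibody to CD226, a costimulatory receptor (2 libraries). A dose of 5 µg/mL is given, with wording that does not say whether it also holds for the isotype control. The design text speaks instead of treated mice, and the table's own treatment column names the controls PBS; the sample labels were followed. Sex and age of the mice are not given. The labels do not say whether the 2 libraries of each group had separate mice or cultures behind them, so every p-value below reflects library-to-library spread, possibly technical.

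IL-2 is bound by 3 chains. IL2RA (CD25) raises the affinity for the cytokine, while IL2RB and IL2RG, the common gamma chain, carry the signal, with JAK1 attached to IL2RB and JAK3 to IL2RG. The kinases phosphorylate STAT5A and STAT5B, which pair, enter the nucleus and induce Cish, Socs1 and Socs2, whose proteins damp the same receptors. ILC2s carry CD25, and IL-2, IL-7, IL-9 and TSLP, which all signal through STAT5, support their survival and cytokine output.

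Among the 8 members with a promoter window, Cish is the one whose window carried the STAT5 motif. The stretch with the motif is shown for that reason. It lies at chr9:107296654-107296683 on the plus strand of GRCm38.p6 and was read from the RefSeq promoter table. Capitals mark the matches to TTCNNNGAA, the motif bound by STAT5 pairs, which reads the same on both strands.
Cish: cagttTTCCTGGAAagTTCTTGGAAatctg

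The matches begin at bases 1 and 12 counted from the RefSeq start site, with 2 bases between them. In the GENCODE annotation the stretch lies in the 5′ untranslated part of exon 1 of transcript Cish-201, and it ends upstream of the start of the shorter transcript Cish-204, with 31 bases between the downstream match and that start. Of 32851 RefSeq windows of 300 bases (250 before to 50 after a start), 8.30% held TTCNNNGAA at least once and 0.457% held it 2 or more times. The spelling with 1 more base between TTC and GAA, also equal on both strands, was present in 6.95% of windows. Among the members, 8 of 10 had a window in the table (Il2rb and Socs2 did not). In the 9 windows of the other 7 genes (Stat5a and Stat5b have 2 each) neither spelling was found, which says only that these letters are not in those windows. These are matches of letters, and no binding was measured here.

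The 4 libraries held between 13740017 and 13921397 normalised reads each, which correspond to an estimated 12433475 to 17847153 reads before the authors' scaling. All 13 ILC2 markers looked at were present (Gata3 at 13810 to 17310 normalised reads, Il1rl1 at 8220 to 9037). None passed the test, nor did any of the 13010 genes tested. Their summed level was 163086 to 174278 in 3 libraries and 137285 in anti-CD226 replicate 2. The cytokine gene Il5 was the largest part of this sum in every library. Il5 and Id2 were lowest in anti-CD226 replicate 2, while Gata3 and Rora were highest there. The groups did not overlap for 7 of the 13 (53.8%), beside 26.8% of all genes. Under anti-CD226, 4 of these were higher (Gata3, Rora, Icos and Il7r) and 3 lower. The lower ones were Il5 (95010 and 97655 against 85431 and 67864), Il13 (2773 and 3419 against 2725 and 921) and Arg1 (10126 and 11145 against 9804 and 7902). Macrophage and monocyte markers (9 of 12 in the table) summed to 113 and 62.2 in the isotype group and to 286 and 1682 in the anti-CD226 group, with Chil3 and Mmp12 making most of the last. Mpeg1 was listed at 0 in both isotype libraries and stood at 4.12 and 16.5 in the anti-CD226 libraries, and Itgax (1.11 and 0 against 14.4 and 46.3), Lyz2 (3.32 and 0.773 against 8.24 and 51.8) and Cd68 (35.4 and 38.6 against 55.6 and 88.2) were likewise higher in both. Csf1r and Adgre1 stood at 1.03 to 7.73, Apoe at 10.8 to 14.4. Of the 6 macrophage markers tested, 5 had an unadjusted p below 0.05 (limma), beside 2.37% of all genes, and none was called. Chil3 was 1 of these 5, although its groups overlapped (19.9 and 0 against 16.5 and 784). Regulatory T cells also carry IL2RA and IL2RB. Their 4 measured markers of 5 summed to 819 and 868 in the isotype group and to 915 and 1484 in the anti-CD226 group, and Foxp3 stood at 11.5 to 36.0. T cell markers (6 of 10 in the table) summed to 3176 and 3706 against 3339 and 2241. Cd226 itself stood at 942 to 1042 in all libraries, but an antibody is not aimed at the transcript, so this does not check the labels. In a sorted population, a change in the share of one cell type and a change in RNA per cell cannot be told apart.

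Across the members, no transcript passed the test between anti-CD226 and isotype (limma on log2(value + 1), Benjamini-Hochberg over 13010 genes with a mean of 10 or more, adjusted p of 0.98 to 0.99). The background in this comparison was 0% called, with 2.37% of genes at an unadjusted p below 0.05 (308 genes) and no member among them. The point estimates were higher under anti-CD226 for 9 of 10 members and lower for 1, from -0.05 to 0.27 on the log2 scale, with a median of 0.15. Among all genes tested, 6647 estimates were above 0 and 6363 below, their median was 0.0066, and the 25th and 75th percentiles were -0.17 and 0.17. The groups did not overlap for 1 of 10 members, Stat5a, against 26.8% of all genes, so that share was below the background. With 2 libraries a group the 95% intervals of the members spanned about 0.41 on the log2 scale to either side, and they left room for folds from 0.741 (Socs2, lower bound) to 1.71 (Jak1, upper bound).

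**Figure D1:**
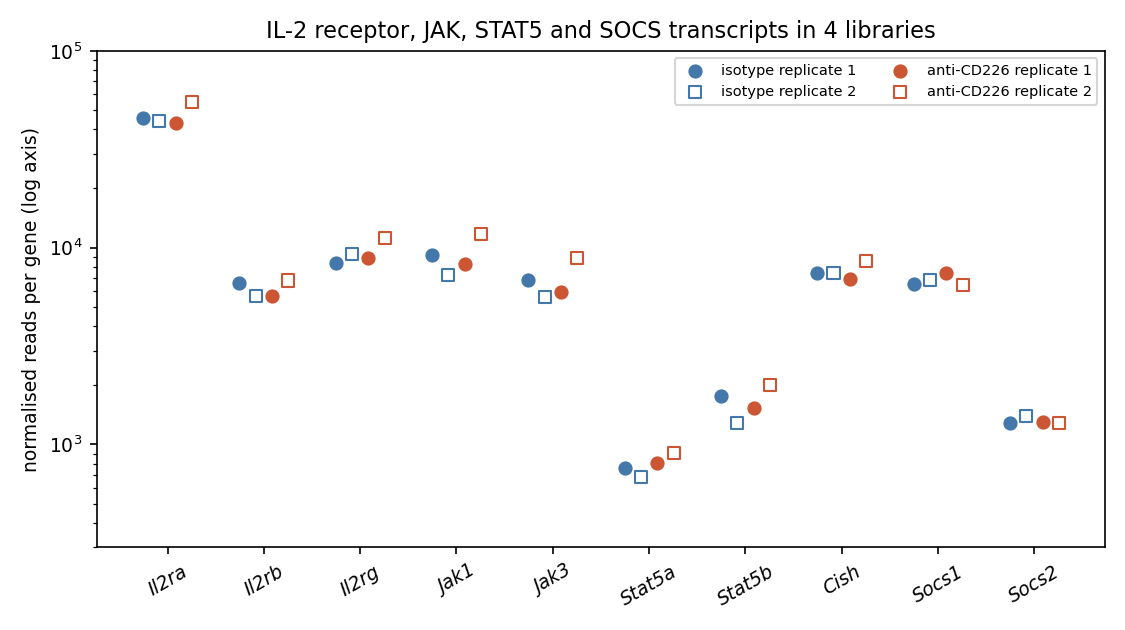
Normalised reads per gene (log axis) of the 10 members, with filled and open symbols for replicates 1 and 2 of the isotype (blue) and anti-CD226 (red) groups. Il2ra, at 42862 to 54699, lies far above the others, and the open red symbol of anti-CD226 replicate 2 is the highest of its gene for 8 of 10 members.

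The receptor chains were abundant. On GRCm38, Il2ra lies on chromosome 2 (11642807 to 11693193, plus strand), Il2rb on chromosome 15 (78479256 to 78495271, minus strand) and Il2rg on chromosome X (101264378 to 101268255, minus strand). Il2ra was the 9th highest of all 17187 genes by normalised reads, and it took between 0.308% and 0.398% of the signal of a library. Its values were 45440 and 43971 normalised reads in the isotype libraries and 42862 and 54699 in the anti-CD226 libraries. The lowest and the highest library were thus both anti-CD226, and the group means were 44706 ± 1039 and 48780 ± 8370 (SD, n = 2). The log2 fold change was 0.12 (SE 0.18, 95% interval -0.30 to 0.53), so a rise of more than 1.45-fold lay outside the interval. Il2ra counts rested on an estimated 41119 to 56910 reads a library, and the gap between the anti-CD226 libraries was 1.28-fold. Reads from the low-input cDNA kit are not independent molecules, so their number does not bound the sampling error.

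Il2rb, the chain shared with the IL-15 receptor, stood at 6646 and 5707 normalised reads under isotype and at 5702 and 6812 under anti-CD226. Each group held 1 high and 1 low library, and the log2 fold change was 0.02 (SE 0.18, interval -0.39 to 0.42). The sign of this value turned with the scaling, to -0.0087 with equal upper quartiles or quantile normalisation. Il2rg, the chain shared by the receptors for IL-2, IL-4, IL-7, IL-9, IL-15 and IL-21, stood at 8345 and 9249 under isotype and at 8889 and 11160 under anti-CD226. The first 3 lay close together and anti-CD226 replicate 2 was above them, with a log2 fold change of 0.18 (SE 0.18, interval -0.23 to 0.59). Il2rg is uncertain as a level, because 42.0% of its 50-base windows also occur in Gm20489, a gene annotated over it on the same strand.

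Per kilobase of exon, Il2ra was the highest of the members, at 8974 normalised reads per kilobase (rank 60 of 16762 genes with a length), and Il2rg followed at 5635 (rank 132). Il2rb was the lowest chain of the receptor, at 1450 (rank 788). The ratio of Il2ra to Il2rb per kilobase was 5.63 and 6.34 in the isotype libraries and 6.19 and 6.61 in the anti-CD226 libraries. That of Il2rb to Il2rg was 0.310 and 0.240 against 0.250 and 0.238, and that of Il2ra to Il2rg 1.75 and 1.52 against 1.55 and 1.57. In all 3 ratios the groups overlapped, and the design could not have called a difference (exact permutation test over libraries, raw p of 0.667 to 1, 0.889 to 1 after adjustment over the 8 ratios computed, and 0.333 the smallest p that 2 against 2 allows).

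Jak1 (chromosome 4, 101152367 to 101265282, minus strand), the kinase that most cytokine receptors of lymphocytes use, stood at 9157 and 7240 normalised reads under isotype and at 8241 and 11700 under anti-CD226. The log2 fold change of 0.27 was the largest of the members (SE 0.22, interval -0.23 to 0.77). Jak3 (chromosome 8, 71676296 to 71690575, plus strand), which works with the common gamma chain alone, stood at 6838 and 5626 against 5939 and 8901, with a log2 fold change of 0.23 (SE 0.22, interval -0.29 to 0.75). In both genes isotype replicate 2 was lowest, anti-CD226 replicate 2 highest, and the groups overlapped. The gap between the anti-CD226 libraries, 1.42-fold for Jak1 and 1.499-fold for Jak3, was wider than the gap between the groups. The kinases kept step with each other: the ratio of Jak1 to Jak3 per kilobase was 1.22 and 1.17 under isotype and 1.26 and 1.20 under anti-CD226.

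The call for the kinases rested on which library was used. Without anti-CD226 replicate 1, Jak1 rose by 0.52 and Jak3 by 0.52 on the log2 scale (limma, adjusted p 0.042 and 0.039), and these 2 of 10 members were called where 12.6% of all genes were. Without anti-CD226 replicate 2, Jak1 was at 0.02 and Jak3 at -0.06, and neither was called. In both fits the lone library of a group was assumed to vary like the other group. Part of the Jak3 exons, 8.04% of its 50-base windows, is shared with the overlapping gene Insl3, whose own values of 1.80 to 17.8 are small beside Jak3.

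The STAT5 genes lie next to each other on chromosome 11 of GRCm38, with Stat5a on the plus strand (100859351 to 100885169) and Stat5b on the minus strand (100780731 to 100850724), their start sites 8627 bases apart and facing away from each other. Stat5a stood at 762 and 687 normalised reads under isotype and at 801 and 908 under anti-CD226. Both anti-CD226 libraries lay above both isotype libraries, the single member for which this held, yet the log2 fold change of 0.24 (SE 0.18, interval -0.17 to 0.64) did not pass the test (limma, unadjusted p 0.22). Stat5b stood at 1755 and 1282 against 1537 and 2007, with a log2 fold change of 0.23 (SE 0.22, interval -0.28 to 0.73) and overlapping groups. Per kilobase they were the lowest members, Stat5b at 297 (rank 3570) and Stat5a at 199 (rank 4729).

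Stat5b was above Stat5a in every library, with a ratio per kilobase of 1.65 and 1.34 under isotype and 1.37 and 1.58 under anti-CD226. The groups overlapped in that ratio. The paralogs share sequence (15.3% of the 50-base windows of Stat5a and 11.1% of those of Stat5b), and how the authors assigned such reads is not given in the sources used here. Stat5a also overlaps Stat3 on the other strand, as Jak1 does Raver2 and Gm24468, and Cish does Gm17040 and Gm17041. Without a stated use of strand, reads from such overlaps cannot be told apart.

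The feedback inhibitors lie apart, Cish on chromosome 9 (107296026 to 107302784, plus strand), Socs1 on chromosome 16 (10782240 to 10785536, minus strand) and Socs2 on chromosome 10 (95385362 to 95417180, minus strand). Cish, an SH2 protein that binds activated cytokine receptors, stood at 7438 and 7422 normalised reads under isotype, closer together than the isotype values of any other member. Its anti-CD226 values of 6900 and 8568 lay to either side of them. The log2 fold change was 0.05 (SE 0.17, interval -0.35 to 0.45), so a rise of more than 1.36-fold lay outside the interval. Socs1, which inhibits the kinases directly, stood at 6548 and 6859 against 7475 and 6450 (log2 fold change 0.05, SE 0.16). It was the one member with its highest value in anti-CD226 replicate 1 and its lowest in anti-CD226 replicate 2. Socs2, known mainly as a brake on growth hormone signalling, stood at 1280 and 1400 against 1298 and 1283 (log2 fold change -0.05, SE 0.16), and its 4 values lay within 1.09-fold of each other. A further 15.1% of the Socs2 windows occur in the pseudogene Gm9847, itself at 27.8 to 37.0.

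Per kilobase, Socs1 (2350) and Cish (2079) stood above both kinases (Jak1 1852, Jak3 1528), and Socs2 was at 487. Neighbours in this order were close: the per-kilobase values of Socs1 in the libraries ran from 2218 to 2571 and those of Cish from 1892 to 2349, so these genes overlapped, as did Cish with Jak1, Jak1 with Jak3 and Jak3 with Il2rb. The other neighbours in the order (Il2ra, Il2rg, Socs1, and Il2rb, Socs2, Stat5b, Stat5a) had library values that did not overlap. With the longest transcript as the length in place of all exons, 2 members changed place. Set against the summed STAT5 transcripts per kilobase, Cish was at 4.01 and 5.03 under isotype and at 3.95 and 3.97 under anti-CD226. This was the single ratio of 8 in which the groups did not overlap, and the values of 4.01 and 3.97 nearly met. Its p (exact permutation test, p = 0.333, 0.889 after adjustment) follows from the lack of overlap alone and is no evidence of a difference. Socs1 to STAT5 was 4.42 and 5.83 against 5.36 and 3.75, and Socs2 to STAT5 0.932 and 1.28 against 1.0035 and 0.804.

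**Figure D2:**
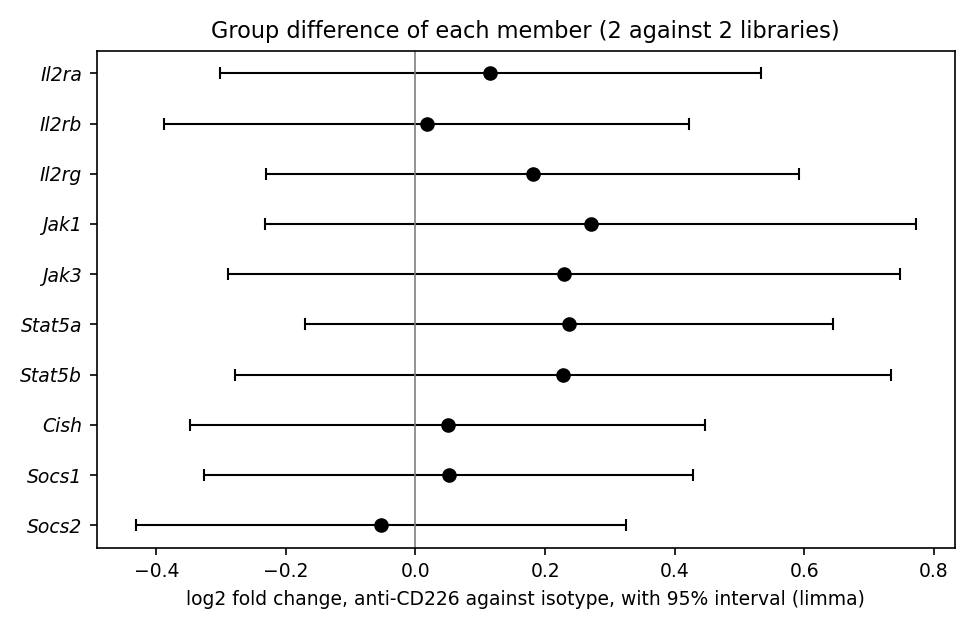
Log2 fold change of each member between the anti-CD226 and isotype groups (points) with the 95% interval from limma (bars), 2 against 2 libraries. All 10 intervals span 0, from Socs2 at -0.05 to Jak1 at 0.27.

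For most members, as for most genes, the libraries of at least 1 group differed by more than the group means did. For 8 of 10 members the highest value was in anti-CD226 replicate 2, the exceptions being Socs1 and Socs2, while 37.0% of all genes tested were highest there. The median deviation of the members from their own means was -0.03 and -0.10 on the log2 scale in the isotype libraries and -0.10 and 0.22 in the anti-CD226 libraries. The wider of the 2 within-group gaps exceeded the difference between the group means for 9 of 10 members, Stat5a being the exception, and for 84.2% of all genes. Taking the wider gap favours this outcome. The narrower gap was below the group difference for some members, such as Il2ra and Cish (isotype) and Socs2 (anti-CD226). Between the anti-CD226 libraries the ratio of replicate 2 to replicate 1 ran from 1.499 (Jak3) and 1.42 (Jak1) through 1.31 (Stat5b), 1.28 (Il2ra), 1.26 (Il2rg), 1.24 (Cish), 1.19 (Il2rb) and 1.13 (Stat5a) to 0.988 (Socs2) and 0.863 (Socs1). Receptors, kinases, transcription factors and the feedback inhibitor Cish were thus all above 1. Only Socs1 and Socs2 were below it, Socs2 barely. Without anti-CD226 replicate 2 the members split into 5 higher and 5 lower, with a median of -0.01, and without anti-CD226 replicate 1 into 8 and 2, with a median of 0.31. Without isotype replicate 2 their median was 0.09.

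The libraries also differed by transcript length. Across 12737 genes, the deviation of a gene in a library correlated with its exon length at a Spearman rho of -0.0092 and -0.48 in the isotype libraries and of -0.36 and 0.53 in the anti-CD226 libraries, a description over genes, which are not independent. In the order isotype 1, isotype 2, anti-CD226 1 and anti-CD226 2, the 7 members of 3500 to 6000 bases had median deviations of 0.03, -0.19, -0.12 and 0.23. All 3452 genes of that length had medians of 0.02, -0.10, -0.04 and 0.15, with the same signs and smaller sizes. Il2rg (1670 bases), Socs1 (2908) and Socs2 (2698) are shorter, and genes of 1500 to 3000 bases (3787 genes) had medians of 0.0039, 0.05, 0.03 and -0.07. With the length trend of each library removed, the fold changes on the log2 scale were 0.0016 for Il2ra, -0.06 for Il2rb, 0.28 for Il2rg, 0.17 for Jak1, 0.14 for Jak3, 0.17 for Stat5a, 0.10 for Stat5b, 0.0017 for Cish, 0.05 for Socs1 and -0.04 for Socs2. Their median was 0.08 in place of 0.15, and 7 of 10 members were still highest in anti-CD226 replicate 2. Il2rg had the largest of these values. Anti-CD226 replicate 2 also held the most macrophage and regulatory T cell marker signal. The latter was mostly the long genes Ikzf2 (9548 bases of exon) and Ikzf4 (5830). Foxp3 (36.0 against 11.5 to 19.9) and the T cell marker Cd3e (79.4 against 51.5 to 61.9) were also highest in that library. Ctla4 and the T cell marker sum, which was mostly Trbc1 and Trbc2, were lowest there. The part of such cells in these values was not tested.

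**Figure D3:**
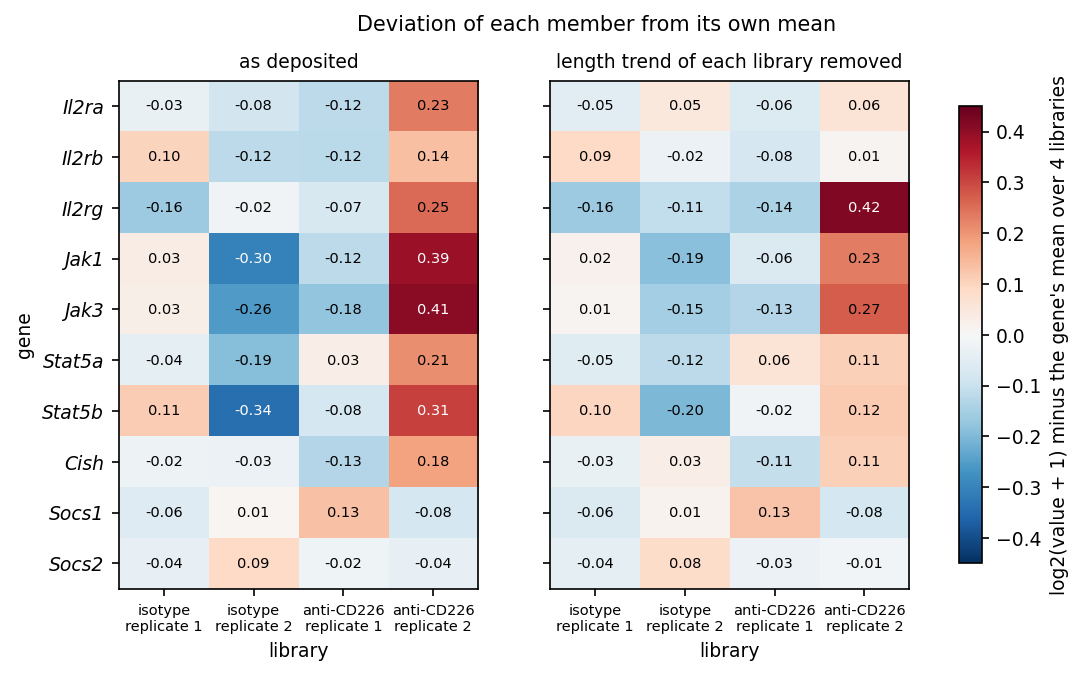
Deviation of each member (rows) in each library (columns) from its own mean of log2(value + 1), as deposited (left) and with the length trend of each library removed (right); red is above and blue below the mean. On the left the column of anti-CD226 replicate 2 is red for 8 of 10 members, from 0.14 for Il2rb to 0.41 for Jak3, and on the right these shifts are smaller for all but Il2rg.

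Other kinase and STAT genes showed a like order of libraries. The 6 further JAK and STAT genes described, among them Jak2, Stat3, Stat4 and Stat6, had higher point estimates under anti-CD226, 6 of 6 with a median of 0.21, and none passed the test. Jak2, the kinase of the growth hormone and beta common receptors, stood at 1822 and 1377 under isotype and at 1674 and 2143 under anti-CD226. Stat3, which IL-6 and IL-10 activate, stood at 5257 and 4557 against 4869 and 6334, and Stat6, which IL-4 and IL-13 activate, at 2733 and 2204 against 2472 and 3302. In each of these 3 genes the libraries ranked, from low to high, isotype replicate 2, anti-CD226 replicate 1, isotype replicate 1 and anti-CD226 replicate 2. This order, picked out after the values were seen, was that of 5 of the 6 (not Stat4) and of Jak1, Jak3 and Stat5b among the members, and 13.7% of all genes and 24.3% of genes of 3500 to 6000 bases had it. Stat4, which IL-12 activates, was the exception, at 1038 and 902 against 1078 and 1157, with no overlap between groups and a log2 fold change of 0.21 (SE 0.17). The median of the 6 was 0.0021 without anti-CD226 replicate 2, 0.06 without isotype replicate 2, 0.37 without isotype replicate 1, 0.40 without anti-CD226 replicate 1 and 0.13 with the length trend removed.

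Ligands and partner chains of the common gamma chain were mixed, with 3 higher and 4 lower of 7 tested (14 listed, 9 in the table), a median of -0.02 (0.02 without isotype replicate 1), and none called. Il7r, the IL-7 receptor chain, stood at 877 and 719 under isotype and at 948 and 916 under anti-CD226, and the groups did not overlap (log2 fold change 0.23, SE 0.18). Crlf2, the partner of Il7r in the TSLP receptor, was lower in both anti-CD226 libraries, at 219 and 212 against 192 and 152 (log2 fold change -0.34, SE 0.21). Neither passed the test. Il4ra stood at 2488 and 2149 against 2155 and 2756, Il9r at 1451 and 1240 against 1334 and 1308, and Il15ra at 129 and 155 against 170 and 147, with overlapping groups in each. Il2 itself was near the limit of counting, at 1.11 and 13.2 against 5.19 and 7.79, where 3 reads are worth 2.32 to 3.32.

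Il9, the cytokine that signals through Il9r and the common gamma chain, was the gene of this list furthest apart, at 129 and 95.03 normalised reads under isotype and at 24.7 and 25.3 under anti-CD226. The log2 fold change was -2.10 (SE 0.31), with an unadjusted p of 1.4e-04 that did not pass over all genes (limma, adjusted p 0.98). The call depended on the fit: the adjusted p was 1.66e-05 when anti-CD226 replicate 1 was dropped, 7.67e-06 when anti-CD226 replicate 2 was, 0.028 when isotype replicate 2 was, 0.42 (not called) when isotype replicate 1 was, and 1.5e-04 with a replicate block.

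Among the beta common and other STAT5-linked receptor chains, 4 of 5 tested were higher, 1 was lower and none was called. Their median was 0.31, or 0.17 with the mean required to be 50 or more, 0.20 with the length trend removed and 0.11 without anti-CD226 replicate 1. Csf2rb, the shared chain of the IL-3, IL-5 and GM-CSF receptors, stood at 560 and 508 against 763 and 576 with no overlap (log2 fold change 0.31, SE 0.20), but it is uncertain, since its near-identical paralog Csf2rb2 stood at 153 and 123 against 168 and 115. Kit, the stem cell factor receptor, stood at 950 and 768 against 913 and 1350, and Il3ra at 95.04 and 104 against 98.8 and 90.4. Myeloid cells also carry these chains, and the macrophage marker sum was higher in both anti-CD226 libraries, as given above. The sum of 8 mast cell and basophil markers was lower in both, at 218 and 216 against 129 and 198. Of the 5 of these tested, 4 were lower, 1 was higher and none was called. An unadjusted p below 0.05 (limma), found for 2.37% of all genes, was found for Cpa3 and Mcpt8, both lower, and for Gata2, which was higher. The part of such cells in these values was not tested.

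The genes listed as brakes on the pathway did not move together, and whether each acts as a brake in these cells was not tested. The other SOCS genes had 1 higher and 4 lower of 5, none called, with a median of -0.08 that was -0.18 with the length trend removed, 0.03 when anti-CD226 replicate 2 was left out and -0.0034 when isotype replicate 2 was. Socs3, the inhibitor of gp130 receptors, stood at 2590 and 2425 under isotype and at 2045 and 2706 under anti-CD226. Socs5 stood at 82.9 and 99.7 against 60.7 and 84.9, and Socs6 at 399 and 324 against 398 and 433. Of 16 phosphatases and other brakes 8 were higher and 8 lower, with a median of 0.04 (0.13 when anti-CD226 replicate 1 was left out, -0.03 when replicate 2 was and -0.01 with the length trend removed) and none called, and 8 of 16 had groups that did not overlap, beside 26.8% of all genes. Ptpn2, a phosphatase of JAK1, JAK3 and STAT5, stood at 1250 and 1325 against 1239 and 1037, and Ptpn11 (SHP-2) at 774 and 739 against 601 and 630, each lower in both anti-CD226 libraries. Sh2b3 (LNK), an adaptor that restrains JAK signalling, stood at 474 and 503 against 538 and 754, and Cblb, a ubiquitin ligase, at 456 and 429 against 464 and 838, each higher in both.

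Of 19 adaptors and STAT5 cofactors, 13 were higher, 6 lower and none called, and the sign of their median of 0.05 turned with the setting. It was 0.25 and 0.01 when anti-CD226 replicates 1 and 2 were left out in turn, 0.20 and -0.03 when isotype replicates 1 and 2 were, and -0.01 with the length trend removed. An unadjusted p below 0.05 was found for 4 of 19, all higher under anti-CD226, against 2.37% of all genes: Sos1, Crebbp, Ncoa1 and Irs2 (the last outside the rule for naming genes and named after its value was seen). Sos1, which passes the receptor signal to RAS, stood at 671 and 768 under isotype and at 1075 and 1321 under anti-CD226 (log2 fold change 0.73, SE 0.19). Crebbp, the acetyltransferase CBP, stood at 653 and 732 against 1022 and 1010 (0.55, SE 0.17), and Ncoa1, a coactivator, at 598 and 437 against 694 and 1055 (0.74, SE 0.25). In these 3 genes the groups did not overlap, yet none passed over all genes (limma, adjusted p 0.98). They are long, with 8436, 10820 and 7329 bases of exon, and with the length trend removed their log2 fold changes were 0.55, 0.36 and 0.58.

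Transcripts that IL-2 and STAT5 are known to induce in lymphocytes were split, with 16 higher and 22 lower of 38 tested, none called, and a median of -0.02 (0.07 without anti-CD226 replicate 1). Ccnd2 (cyclin D2) stood at 4195 and 4474 under isotype and at 4915 and 5359 under anti-CD226, without overlap (log2 fold change 0.24, SE 0.16). The survival gene Bcl2 stood at 1861 and 2084 against 1804 and 2564, the kinase gene Pim1 at 6432 and 6228 against 5743 and 6707, and Myc at 2066 and 2141 against 2003 and 2657. In these last 3 the lowest and the highest library were both anti-CD226, as for Il2ra, Il2rb and Cish and, in reverse order, Socs1. Hk2, a hexokinase, stood at 1016 and 872 against 1177 and 1212, Il18r1 at 108 and 126 against 87.5 and 86.0, and Tnfrsf18 (GITR) at 3097 and 3337 against 3121 and 2051. None of these passed the test.

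Of 12 tested transcripts that IL-2 and STAT5 are known to repress, 9 were higher and 3 lower, with a median of 0.07 (0.19 with the mean required to be 50 or more, 0.04 with the length trend removed) and none called. Lef1, a transcription factor of resting T cells, stood at 308 and 329 under isotype and at 381 and 545 under anti-CD226 (log2 fold change 0.52, SE 0.22, unadjusted p 0.049). Il6st (gp130) stood at 243 and 113 against 174 and 355, and Foxo1 at 778 and 762 against 805 and 1014. Across induced and repressed transcripts alike, the share without overlap between groups was 28.9% (11 of 38) and 41.7% (5 of 12), beside 26.8% of all genes. Of the genes named in the pathway lists, Kit, Sh2b3, Cblb, Sos1, Crebbp, Ncoa1, Lef1 and Il6st rose and Il9 and Tnfrsf18 fell when anti-CD226 replicate 1 was left out (limma, adjusted p of 1.66e-05 to 0.042), a fit in which 12.6% of all genes were called. Most of these genes had been named for a small p in the same comparison.

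**Figure D4:**
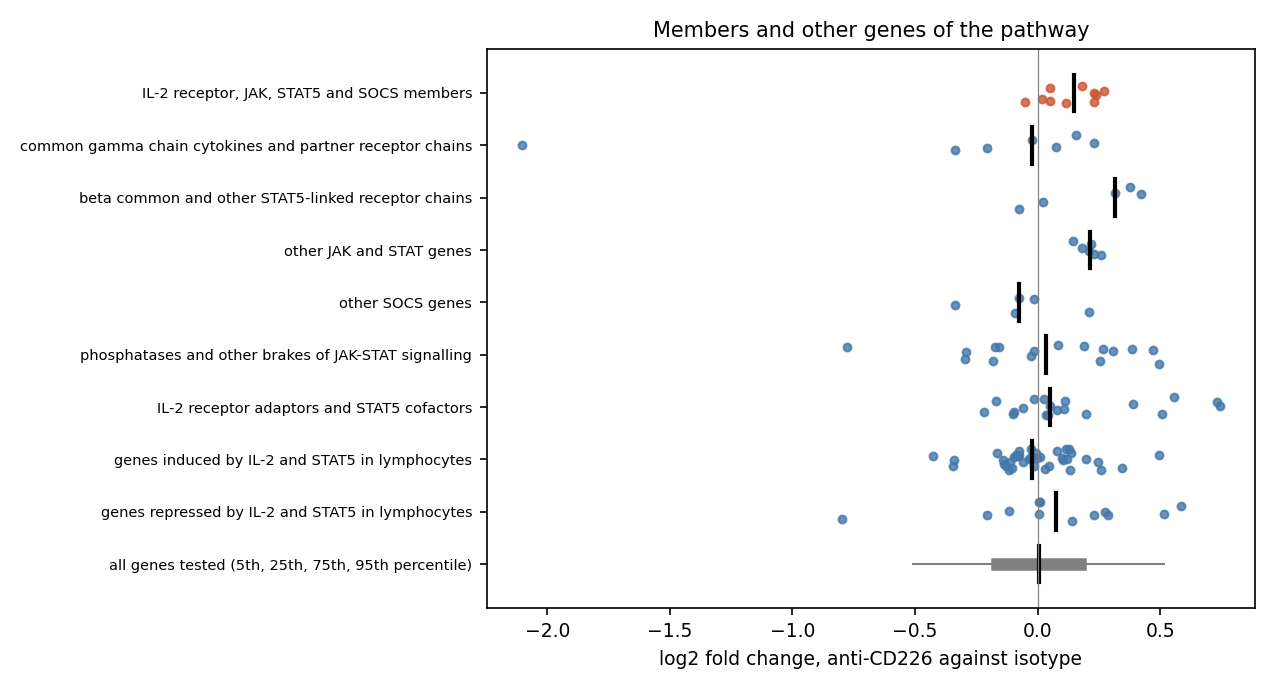
Log2 fold change between anti-CD226 and isotype for each gene tested (points) in the members and the 8 lists of pathway genes, with the list median as a black bar, and the 5th, 25th, 75th and 95th percentiles of all genes tested in grey at the bottom. The members (median 0.15) and the other JAK and STAT genes (median 0.21) lie in a narrow range, all above 0 but for Socs2 at -0.05, while the induced genes centre on -0.02.

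Il2ra and Cish had near neighbours in profile, measured as the Euclidean distance between deviations of log2(value + 1) over the 4 libraries among 10336 genes with a mean of 50 or more. Nearest to Il2ra were Khsrp (distance 0.0052), Man2b1 (0.0066) and Pigq (0.02), and 304 genes lay within 0.1. Nearest to Cish were Dcaf12 (0.0090), Mgat4b (0.012) and Slc16a1 (0.018), and 232 genes lay within 0.1. Cish and Il2ra were 0.078 apart, and Cish was 154th from Il2ra, so with 4 libraries a like profile is common. Of the other members, Il2rg (0.154) and Il2rb (0.1703) were next nearest to Il2ra, and Socs1 (0.412) was the farthest.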

How the data were processed

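Per gene (17187) and library (4), the authors deposited a normalised signal. The submitters' processing notes name the build mm10, DESeq2, Partek 10.0 and STAR 2.7.8. How reads were counted, and on which annotation and strand, is not given in the sources used here. Per the labels' protocols, cDNA came from a SMARTer low-input kit, whose reads are not independent molecules. Between 73.4% and 74.2% of values were whole multiples of 1 step (tolerance 0.02), too few for a count model, so the estimated depth is the total divided by the step. Of the table's gene columns, 594 were checked singly.

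Values were tested as log2(value + 1), for genes with a mean of 10 or more, with limma 3.58.1 in R 4.3.3 (mean-variance trend, two-sided, Benjamini-Hochberg over 13010 genes, call at 0.05, 2 residual and 5.81 prior degrees of freedom). The script was tested on simulated data. Folds on this scale understate low genes. Levels per kilobase used the exons of GENCODE on GRCm38, available for 97.5% of genes.

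The members, lists and tests were chosen with earlier results of these data known. Of the pathway lists, 1 gene is not reported here and was left out of its list's counts and median. Named genes are the members, in each list up to 3 genes of smallest unadjusted p (mean at least 50), 15 further pathway genes, and the 3 nearest profiles to Il2ra and Cish. Alternatives changed the pseudocount, filter, scaling, variance prior, length trend, replicate term and libraries used.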

Additional observations from a re-analysis of the deposited data

How the results depend on the processing

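Under 17 alternatives (16 planned and 1, the crossed pairing, added after seeing the data) the 10 members gave 170 values. Of these 158 kept their direction and side of the threshold, 10 reversed and 2 (Jak1 and Jak3 without anti-CD226 replicate 1) newly passed; the values of Il2rg, Jak1, Stat5a and Stat5b never reversed. No gene was called in 11 alternatives. With a replicate block 20 genes were called and with crossed pairs 61, with no member among them. Same-numbered libraries did not deviate together (correlation -0.24), and the labels do not say that a number marks a shared source. Leaving out 1 library called between 12 and 1633 genes and between 0 and 2 members, the highest of each without anti-CD226 replicate 1.

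Reversed log2 fold changes were, for Il2rb, -0.0087 with equal upper quartiles, -0.0087 with quantile normalisation and -0.064 with the length trend removed, which also gave -0.039 for Il4ra and -0.059 for Bcl2. With each library left out in turn, other reversals were seen, and the ranges here cover all of these fits, reversed or not. Il2ra ran from -0.061 to 0.29, Il2rb from -0.11 to 0.15 and Jak3 from -0.063 to 0.52. Cish ran from -0.11 to 0.21, Socs1 from -0.055 to 0.16 and Socs2 from -0.12 to 0.011. Socs3 ran from -0.29 to 0.11, Il9r from -0.14 to 0.091 and Il4ra from -0.10 to 0.25. Stat3 ran from -0.0075 to 0.37, Bcl2 from -0.13 to 0.38, Pim1 from -0.14 to 0.084 and Myc from -0.071 to 0.34. The cause was not tested. Of 153 medians of lists recomputed, 14 moved by more than 1 SD of the list's median between libraries of a group. The members rest on an estimated 690 reads or more in each library, and the unadjusted 95% interval of a typical member reaches 0.41 on the log2 scale to either side. Differences larger than that were also not called after adjustment over all genes.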
